A study of Drosophila melanogaster with 4 samples.

Results

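The regions described here are ORC2 binding sites of the fly embryo that lie close to another ORC2 site. They were chosen by position alone, from the series-level list of ORC2 regions on the chromosome arms 2L, 2R, 3L, 3R, 4 and X. A region counted as clustered where the nearest other region of its arm began or ended within 20 kb of it, edge to edge, and neighbouring clustered regions were chained into zones. This gave 219 clustered regions in 81 zones, out of 533 regions on the 6 arms and 540 in the whole list. The other 314 regions of the arms had no neighbour within 20 kb and are called isolated. All positions are on FlyBase release 5.1 and count from the first base of the arm.

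Chromatin immunoprecipitation with sequencing (ChIP-seq) was done with a rabbit polyclonal serum raised against the whole Drosophila ORC2 protein, on a mixture of Drosophila melanogaster embryos aged 0 to 24 h. The labels give no strain, genotype or treatment. There were 2 ORC2 ChIP samples, each from its own extraction and called replicate 1 and replicate 2 here, and 2 input DNA samples, which were not analysed here. Whether the extractions came from separate embryo collections is not stated, so the spread between the replicates may be technical, and whole embryos mix all tissues and cell cycle states.

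ORC, the origin recognition complex, is a multi-subunit protein complex that binds chromatin and loads the MCM helicase, which later opens the DNA for replication. ORC2 is one of its core subunits. In animals ORC shows little preference for a particular base sequence, and replication often starts at several alternative places across a broad stretch, called an initiation zone, of which any 1 cell uses few. A cluster of ORC2 sites is therefore a candidate for such a stretch. No file analysed here measured replication, so the word zone is used below for a chain of neighbouring ORC2 regions and for nothing more.

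A region of the series-level list reaches over all replicate 1 and replicate 2 peaks that overlap there, and its score is the mean of theirs. This held in 540 of 540 regions, with a tolerance of 1e-05 on the score. Each replicate was also scored on its own: replicate 1 had 1386 peaks with a median score of 2.19 and replicate 2 had 1600 with a median of 2.46. The score is a value of the PeakSeq peak caller with no stated unit, so scores are compared within a list. The files hold no read counts, and the depth behind each value is unknown. With no input analysed, the part that uneven background along the arms may have in the zones was not tested.

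Most zones were small. A pair of regions made up 49 of the 81 zones, 3 regions made up 21, 4 regions made up 6, and 5 zones held more, the fullest with 9. The 32 zones of 3 or more regions held 121 of the 219 clustered regions. The median zone spanned 7.81 kb, with quartiles of 2.36 and 15.9 kb, a shortest zone of 654 bp and a longest of 72.2 kb. Together the zones spanned 848 kb, 0.7296% of the 116 Mb between the outermost peaks of the arms. Their regions held 45.3% of all bases covered by ORC2 regions on the arms.

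The zones differed widely in how densely ORC2 filled them. Regions covered a median of 10.2% of a zone, from 1.53% to 77.1%, with quartiles of 4.92% and 31.6%. The fullest was a pair on 3L from 11287609 to 11289237, where a region of 726 bp and its neighbour filled 77.1% of 1629 bp. Among the least filled, the pair on chromosome 4 covered 1.84% of 19.8 kb. Compact and open zones are thus both in the set, and 34 zones spanned up to 5 kb while 10 spanned more than 20 kb.

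Short gaps were the most frequent per unit of length. The rule chose the members by these gaps, so they are described with no test. Of the 138 gaps inside zones, 37 were up to 1 kb, 17 were over 1 and up to 2 kb, 29 were over 2 and up to 5 kb, 24 were over 5 and up to 10 kb and 31 were over 10 and up to 20 kb. Per kb of gap length this was 37 gaps in the shortest class and 3.10 in the longest, and 2.45 for the 49 gaps over 20 and up to 40 kb. The number of gaps per kb thus changed little across the limit of 20 kb, and the plot of gap lengths shows no empty stretch there. The shortest gap was 219 bp, and the shortest between peaks of either replicate list was 202 bp, so peaks nearer than that do not occur in any of the lists.

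**Figure D1:**
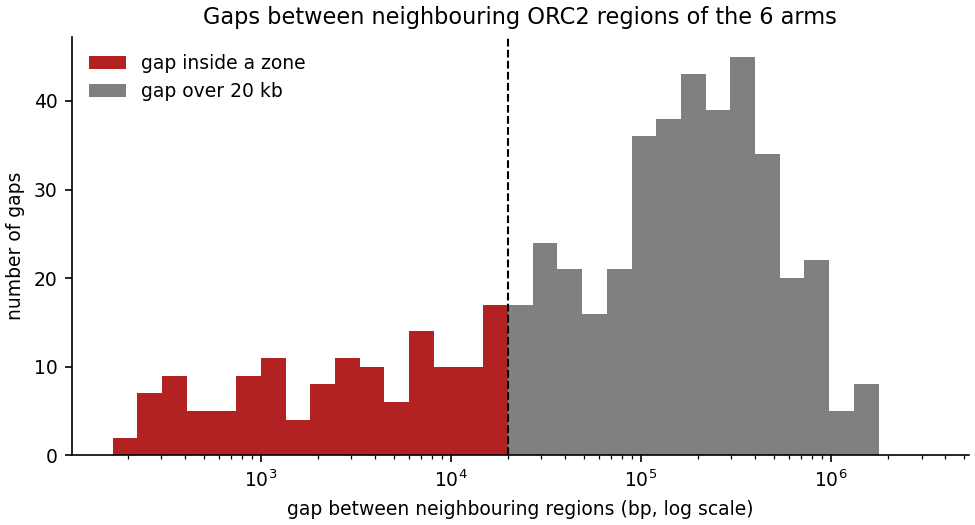
Number of gaps (vertical axis) by gap length in bp (horizontal axis, log scale) between neighbouring ORC2 regions of the 6 arms. Red bars are the 138 gaps inside zones, grey bars are longer gaps, and the dashed line marks 20 kb. Gaps occur on both sides of the line with no break between them.

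The members nearest to the limit show how little separates them from the isolated regions. The widest gap kept was 19918 bp, on X between regions ending at 19557171 and starting at 19577089, which scored 1.99 and 2.07. Next came 19480 bp on chromosome 4 and 18991 bp on 2R. The narrowest gap left out was 20906 bp, on 3L between regions ending at 3389150 and starting at 3410056, which scored 3.16 and 2.12. It was followed by 21101 bp on X and by 21440 bp on 2R, the gap that keeps a region of score 3.71, at 8846333 to 8846682, out of the 2R zone of 4 regions that begins at 8868122.

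The zone with the most ORC2 regions lay on 3L from 17556732 to 17612617, with 9 regions over 55.9 kb. From left to right, replicate 1 scored them 3.22, 2.45, 2.50, 3.07, 2.08, 2.70, 2.30, 2.63 and 2.33. In the same order, replicate 2 scored them 3.17, 3.95, 3.14, 3.76, 3.27, 4.23, 2.60, 3.01 and 2.18. In each replicate 8 of the 9 regions scored above the median of that replicate's list, the exceptions being the fifth in replicate 1 and the rightmost in replicate 2. The highest-scoring region, at 17583624 to 17584137, had a mean score of 3.46 ± 1.08 (SD, n = 2) and a width of 514 bp. The widest, at 17604944 to 17605490, had 547 bp and scored 2.82 ± 0.27 (SD, n = 2).

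Within the 3L zone the share of a region covered by both replicates ranged from 20.3% to 94.9%. The region at 17569578 to 17569952 was covered by both replicates over 94.7% of its 375 bp, the widest region over 94.9%, and the leftmost, of 499 bp at 17556732, over 89.98%. The poorest match was the region of 177 bp at 17565448, where the replicate 1 peak was 36 bp wide and both replicates shared 20.3% of the length. The other regions were at 17559696 to 17559908 (213 bp), 17570929 to 17571146 (218 bp), 17600069 to 17600186 (118 bp) and 17612391 to 17612617 (227 bp). Of these, the one at 17559696 was covered by both over 54.5% and the one at 17612391 over 59.9%, close to the median of 56.25% over all clustered regions. Beside its 9 regions the zone held 1 peak of replicate 1 alone and 3 of replicate 2 alone. The flanks of 10 kb on either side held none.

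The longest zone lay on 3R from 12034088 to 12106273, with 8 regions over 72.2 kb. From left to right, replicate 1 scored them 3.03, 1.99, 1.82, 1.98, 2.11, 2.21, 3.16 and 1.95. Replicate 2 scored them 3.04, 1.78, 2.16, 2.88, 2.05, 2.15, 1.78 and 1.69. Most of these scores were below the list medians, with exceptions that only in part coincide. The leftmost region, at 12034088 to 12034371, was high in both replicates and had a mean score of 3.03 ± 0.01 (SD, n = 2). The region at 12086690 to 12086865 was the highest of the zone in replicate 1, at 3.16, and among the lowest in replicate 2, at 1.78.

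Regions of the 3R zone were wide. The widest, at 12066814 to 12067404, had 591 bp, of which both replicates covered 89.7%, and scored 2.08 ± 0.04 (SD, n = 2). Its neighbours were the region of 437 bp at 12068183 to 12068619 and the region of 420 bp at 12062072 to 12062491. The remaining members had 282 bp at 12049036, 343 bp at 12050386, 176 bp at 12086690 and 472 bp at 12105802, each position being the first base. All but 1 of the 8 were thus wider than the median region of the arms, 242 bp.

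The 3R zone also held the most peaks found in 1 replicate alone, 5 of replicate 1 and 6 of replicate 2. One of them, at 12075255 to 12076530, was 1276 bp wide in replicate 1, wider than any region of the zone, with a score of 1.49, and the nearest replicate 2 peak lay 4290 bp away. In other places the replicates placed narrow peaks side by side without sharing a base. A replicate 1 peak at 12060194 to 12060266 and a replicate 2 peak at 12060297 to 12060328 were 31 bp apart, and a replicate 2 peak of 353 bp at 12080820 lay 307 bp from a replicate 1 peak of 2 bp. These spots are missing from the shared list although both replicates had a peak close by.

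The most compact of the large zones lay on 2L from 12004064 to 12012588. Its 6 regions covered 48.2% of 8.53 kb, with a median gap of 527 bp. From left to right their widths were 854, 260, 113, 784, 939 and 1155 bp, and the first bases of the regions were 12004064, 12005653, 12006341, 12006980, 12010227 and 12011434. Of the 10 widest regions on the arms, 4 were in this zone. Replicate 1 scored the regions 2.49, 2.69, 2.33, 2.35, 1.96 and 1.80, and replicate 2 scored them 2.84, 2.97, 1.87, 2.90, 3.06 and 2.59. The broad regions on the right were thus low in replicate 1 and above the list median in replicate 2. The zone held no peak of 1 replicate alone, and replicate 2 had 8 peaks in it where replicate 1 had 6.

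**Figure D2:**
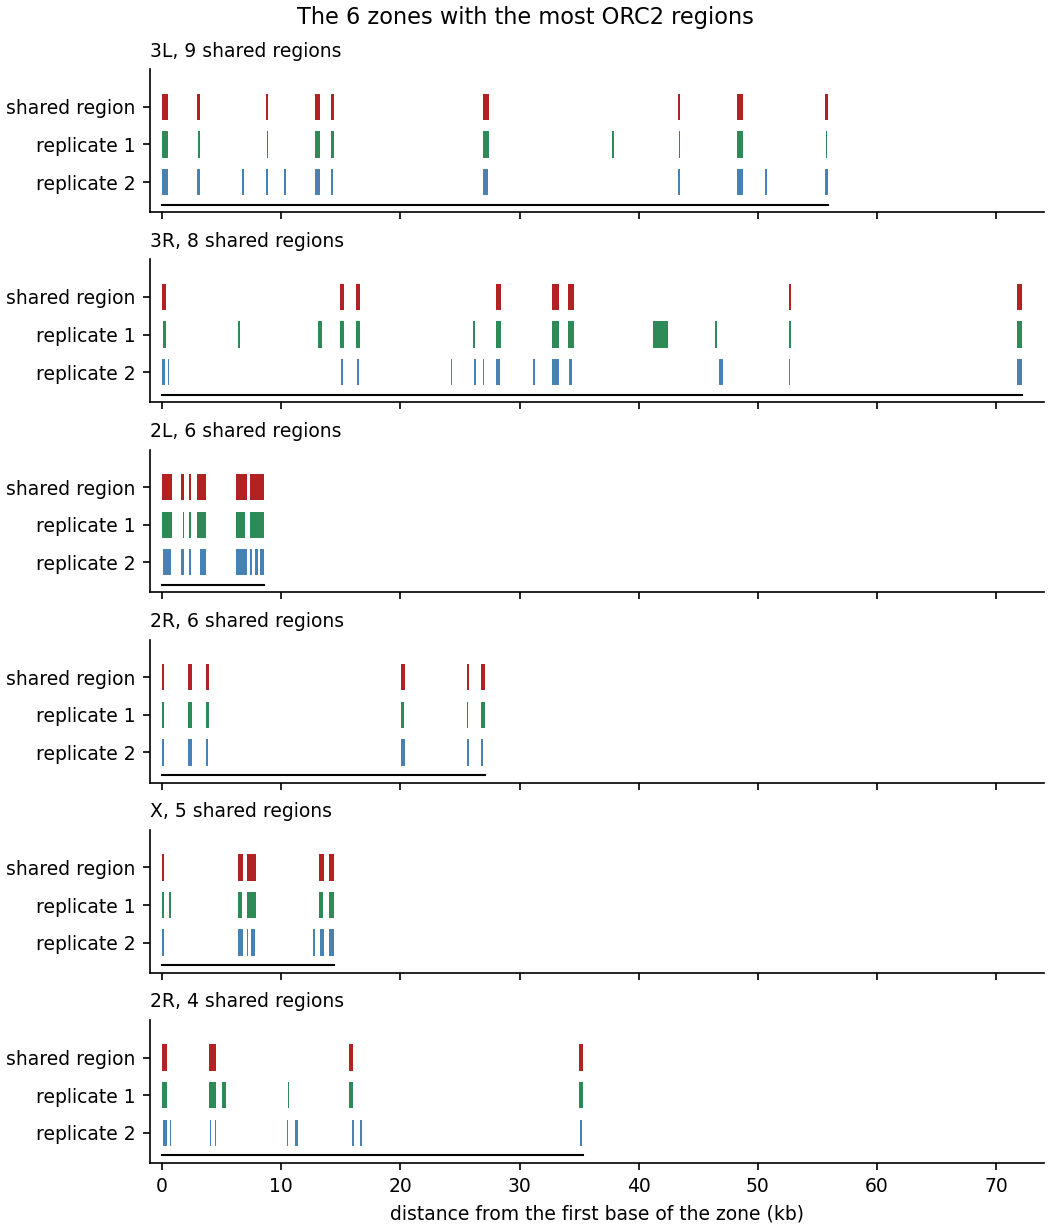
Maps of the 6 zones with the most regions, each drawn to the same scale from its first base (horizontal axis, kb). The rows show shared regions (red), peaks of replicate 1 (green) and peaks of replicate 2 (blue), and the black line is the span of the zone. The 2L zone fills 48.2% of its span, while the zones on 3L and 3R fill 5.17% and 4.16%, and the 3R zone has 5 and 6 peaks of replicate 1 alone and replicate 2 alone.

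The other zones of 4 or more regions were less filled than the 2L zone of 6 regions, with 4.76% to 20.5% of their spans covered. On 2R, 6 regions lay between 9892157 and 9919290, in 2 groups of 3 with 16148 bp between them. The highest of them on the mean, at 9912212 to 9912513, scored 2.79 in replicate 1, where the region at 9892157 was higher at 2.84, and 4.26 in replicate 2. The widest, at 9894294 to 9894703, had 410 bp. This zone held no peak of 1 replicate alone, and 6 peaks of each replicate met in its 6 regions. On X, 5 regions lay between 7187462 and 7201888, where the widest, 719 bp at 7194589, was also the highest on the mean, with 2.31 in replicate 1, where the region at 7187462 was higher at 2.78, and 3.54 in replicate 2.

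Of the zones of 4 regions, the one on X from 3669945 to 3675231 was short and high. Its regions scored 3.15, 2.90, 1.76 and 3.30 in replicate 1 and 2.23, 3.33, 4.53 and 4.30 in replicate 2. The region at 3674962 to 3675231 was the highest on the mean, 3.80 ± 0.71 (SD, n = 2), and the widest was the leftmost, with 312 bp. The zone on 2R from 8868122 to 8903478 was long and low, with scores of 1.67, 1.66, 1.54 and 1.54 in replicate 1 and 1.99, 1.94, 1.97 and 2.43 in replicate 2. All 8 of these scores were below the medians of their lists. In it, a shared region of 312 bp at 8883842 rested on a replicate 2 peak of 9 bp, while the widest region, 612 bp at 8872033, was backed by 227 bp in replicate 2. Its region at 8903144 was highest on the mean and in replicate 2, but not in replicate 1.

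On 2L, 3 zones of 4 regions were found. The one from 2193495 to 2203583 held the region at 2193495 to 2193859, which scored 3.21 in replicate 1 and 5.20 in replicate 2 and was covered by both over 98.4% of its 365 bp. It also held a region of 857 bp at 2196488 with like scores in both replicates, 2.24 and 2.21. The zone from 16269328 to 16287868 was highest on the mean at its right end, where the region at 16287390 scored 2.22 in replicate 1 and 3.73 in replicate 2. In neither replicate alone was it the highest, as 16280046 scored 2.36 in replicate 1 and 16284650 scored 3.91 in replicate 2. That region shared its width of 479 bp with the one at 16269328. In the zone from 16526085 to 16545754 the region of 78 bp at 16545677 was highest on the mean, at 2.4995, and rested on a replicate 2 peak of 13 bp. The widest there had 405 bp at 16526085.

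Chromosome 4, small and largely heterochromatic, had a single zone, from 509446 to 529290. Its 2 regions scored 2.24 and 2.87 in replicate 1 and 2.70 and 2.27 in replicate 2, so the replicates ranked them in opposite order. They were 19480 bp apart, and between them lay 3 peaks of replicate 1 alone and 1 of replicate 2 alone. The region at 509446 was the wider, with 211 bp, and the one at 529136 was the higher on the mean, 2.57 ± 0.42 (SD, n = 2).

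Clustered regions had a higher median width than isolated ones in both replicates. In the series-level list the median width was 268 bp for clustered regions (quartiles 185 and 391.5) and 227.5 bp for isolated regions (quartiles 149 and 319.75). In replicate 1 the peaks behind them had a median of 235 bp in clustered and 203.5 bp in isolated regions. In replicate 2 the medians were 171 bp and 123 bp. Widths overlapped over nearly their whole range, 47 to 1155 bp in clustered and 28 to 1184 bp in isolated regions. Regions of a zone are neighbours and not independent, so no test was made of these medians. The difference in the series-level list, 40.5 bp, was 21 bp when regions were joined up to 50 kb and 24.5 bp with each zone counted once by its median.

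Their scores were higher too. In replicate 1 the median score was 2.15 in clustered regions (quartiles 1.90 and 2.49) and 2.05 in isolated regions (quartiles 1.83 and 2.37). In replicate 2 it was 2.59 in clustered regions (quartiles 2.10 and 3.06) and 2.34 in isolated regions (quartiles 1.99 and 2.81). The medians differed by 0.10 in replicate 1 and 0.25 in replicate 2, less than the distance between the quartiles of either group. With each zone counted once the differences were 0.07 and 0.14. The replicate 1 difference was 0.05 with regions joined up to 50 kb and 0.06 without regions within 1 kb of another. The SD between the 2 replicates' differences was 0.10. The direction did not hold on every arm. On 3R the replicate 2 median was 2.16 in clustered and 2.23 in isolated regions. On 3L the replicate 1 medians were 2.083 and 2.085. In each replicate the clustered median was the higher on the other arms. The part that the mix of arms has in these differences was not tested. Of the 10 regions on the arms highest on the mean of both replicates, 7 were clustered. The replicates alone ranked them otherwise. Of the 10 highest scores in replicate 1, clustered regions held 5.63, 4.66 and 4.06. Isolated regions held 4.56, 4.43, 4.31, 4.30, 4.28, 3.96 and 3.87. Of the 10 highest in replicate 2, clustered regions held 6.82, 5.55, 5.20, 5.18 and 5.08, and isolated regions 5.85, 5.39, 5.01, 4.85 and 4.67. Of the 10 widest regions 7 were clustered, most of them in the 2L zone that starts at 12004064. Over all regions of the arms the share was 41.1%, 219 of 533. Regions of a zone are not independent, so these counts are given with no test. The region highest on the mean of both replicates, though in neither alone, lay on 2R at 20213031 to 20213241. It was one of a pair and scored 4.66 in replicate 1 and 5.08 in replicate 2.

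**Figure D3:**
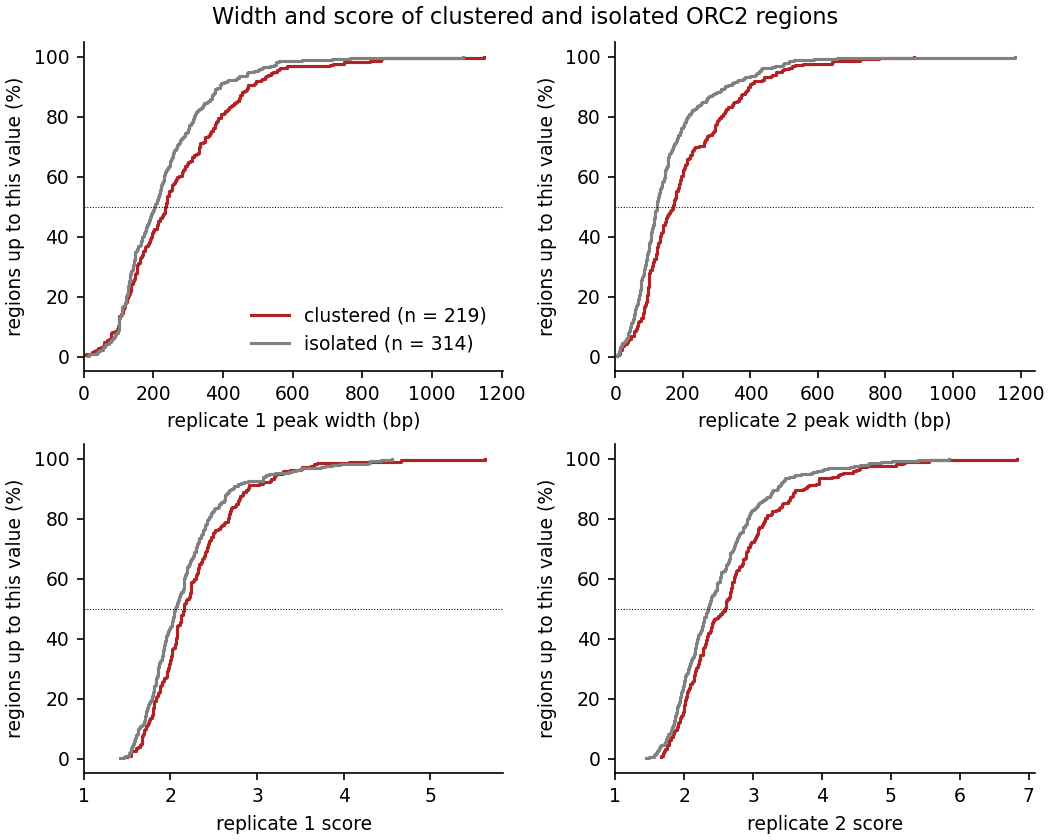
Share of regions up to a given value (vertical axis, %) for the width of the replicate peaks in bp (upper panels) and for their score (lower panels), with replicate 1 on the left and replicate 2 on the right. Red lines are the 219 clustered and grey lines the 314 isolated regions, and the dotted line marks 50%. The red lines cross 50% at higher values in all 4 panels, at 235 and 171 bp against 203.5 and 123 bp for width.

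Zones of 4 or more regions had the highest medians. Median width was 339 bp in zones of 4 or more regions, 242 bp in zones of 3, 251 bp in zones of 2 and 227.5 bp in isolated regions. In replicate 1 the median score was 2.31 in zones of 4 or more, 2.13 in zones of 3, 2.10 in zones of 2 and 2.05 in isolated regions. In replicate 2 these medians were 2.80, 2.49, 2.52 and 2.34. With each zone counted once by the median of its regions, 9 of the 11 zones of 4 or more were wider than the median isolated region, and 8 of the 11 scored higher in each replicate. Of the 49 pairs, 26 were wider (53.1%, Wilson 95% interval 39.4 to 66.3). With replicate 1 widths 24 pairs were wider (48.98%, 35.6 to 62.5), and with replicate 2 widths 34 (69.4%, 55.5 to 80.5). Of the same pairs, 28 scored higher in replicate 1 (57.1%, 43.3 to 69.98) and 29 in replicate 2 (59.2%, 45.2 to 71.8).

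Being wide and high scoring went together with clustering more than either did alone. Of the 127 regions above the medians of both width (242 bp) and score (2.29), 58.3% were clustered (Wilson 95% interval 49.6 to 66.5). The share was 34.5% (27.1 to 42.8) of the 139 wide but low-scoring regions, 40.3% (32.5 to 48.6) of the 139 narrow but high-scoring ones and 32.0% (24.6 to 40.5) of the 128 narrow and low-scoring ones. By width alone, 52.6% (44.2 to 60.9) of the widest 25%, from 345 bp up, were clustered, against 32.8% (25.5 to 41.2) of the narrowest, up to 162 bp. By score alone, the shares from the lowest to the highest 25% were 29.1%, 37.6%, 49.6% and 48.1%. The score here is the mean of both replicates, and these splits were not made in each replicate alone. The intervals cover counting error only and take regions as independent, which neighbours are not.

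Width did not follow the distance to the nearest neighbour in order. Median width was 259.5 bp in the 70 regions with a neighbour up to 1 kb away, 311.5 bp in the 74 with the nearest over 1 and up to 5 kb, and 250 bp in the 75 with the nearest over 5 and up to 20 kb. In isolated regions the median was 230 bp where the nearest region lay within 100 kb and 226.5 bp where it lay farther. Replicate 2 scores in the 3 clustered classes had medians of 2.595, 2.68 and 2.38. The class nearest to the limit of 20 kb thus had the lowest median of the 3, beside 2.34 in isolated regions.

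Inside a zone the values of neighbouring regions were only weakly related. Across the 138 pairs of neighbours in a zone, Spearman's rho was 0.13 for the score in replicate 1 and 0.11 in replicate 2, and 0.16 and 0.11 for the width. For the 389 pairs over 20 kb apart, rho was 0.04 and -0.03 for the score and -0.07 and -0.03 for the width. These relations are across neighbouring regions called in the same list and are too weak to be a finding. For the score, rho between the replicates over the same clustered regions was itself only 0.18. The low values for neighbours therefore cannot show how alike the regions of a zone are in score. Members at the ends of zones of 3 or more had a median width of 300 bp and inner members 282 bp. The widest member was at an end in 21 of these 32 zones, and 64 of their 121 regions were ends. That pooled share is below the mean share of ends by zone, as 21 of the zones had 3 regions, 2 of them ends. No test was made of the place of the widest member.

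How far the replicates picked the same region of a zone was counted for width and score, with no test. In 21 of the 32 zones of 3 or more regions the same region was widest in both replicates, and in 12 the same region scored highest. Unrelated picks would match in a minority of such zones. The count of 21 for width was a majority of the 32, and the count of 12 for score was not. The exact count that unrelated picks would give was not computed. In the 49 pairs the same region was wider in 26 and scored higher in 24. In a pair, unrelated picks would match about as often as not. Both counts are close to that, so they show no clear agreement of the replicates within pairs. Over all clustered regions, Spearman's rho between the replicates was 0.48 for width and 0.18 for score (n = 219), and over isolated regions 0.40 and 0.29 (n = 314). Both lists come from the same caller, a region had to be found in both to be listed, and regions are not independent, so no p is given.

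Peaks found in 1 replicate alone were not used to choose the zones. They come from the same 2 ChIP samples and the same peak caller as the regions, so they are no independent evidence for the zones. Of 1368 replicate 1 peaks on the arms, 835 met no replicate 2 peak, and of 1543 replicate 2 peaks, 1004 met no replicate 1 peak. Such peaks lay at 39.7 per Mb between the regions of zones in replicate 1 (exact Poisson 95% interval 26.9 to 56.3, 31 peaks) and at 19.8 per Mb (13.5 to 27.9, 32 peaks) in the 10 kb on either side of zones. In replicate 2 they lay at 72.9 per Mb between the regions of zones (55.2 to 94.5, 57 peaks) and at 27.8 per Mb beside zones (20.3 to 37.2, 45 peaks). Beside isolated regions the densities were 19.3 per Mb in replicate 1 and 24.04 in replicate 2, and on the rest of the arms 6.06 and 6.99. The densities beside zones and beside isolated regions have overlapping intervals in both replicates, and without the 3 fullest zones their order turned in replicate 1, to 18.6 per Mb beside zones. The density between regions was 2.01 times that beside zones in replicate 1 and 2.62 times in replicate 2.

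**Figure D4:**
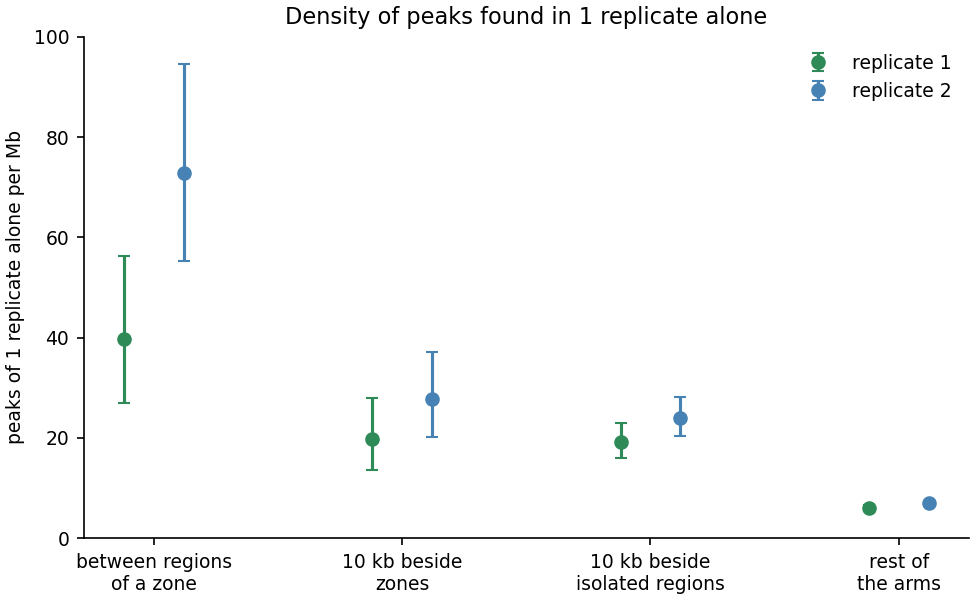
Density of peaks found in 1 replicate alone (vertical axis, peaks per Mb) by place on the arms, for replicate 1 (green) and replicate 2 (blue). Bars are exact Poisson 95% intervals, which cover counting error only. Points fall from 39.7 and 72.9 per Mb between the regions of zones to 6.06 and 6.99 on the rest of the arms.

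The densities were also set side by side by distance from the nearest region. At up to 1 kb, replicate 1 had 66.96 peaks per Mb between regions of zones, 61.7 beside zones and 60.5 beside isolated regions, with overlapping intervals, and replicate 2 had 124, 80.2 and 70.1. Over 1 and up to 2 kb the densities were 57.0, 43.2 and 22.3 per Mb in replicate 1 and 85.5, 74.1 and 44.6 in replicate 2. Over 2 and up to 5 kb replicate 1 showed no excess, with 10.99 per Mb between regions, 10.3 beside zones and 16.5 beside isolated regions, while replicate 2 had 40.3, 26.7 and 18.6. Over 5 and up to 10 kb the stretches between regions held 6 peaks of replicate 1 (37.7 per Mb, interval 13.8 to 82.0) and 8 of replicate 2 (50.2, 21.7 to 98.96), against 12.3 (5.92 to 22.7) and 8.64 (3.47 to 17.8) beside zones. At this distance the intervals overlap in replicate 1 and do not in replicate 2. At each distance up to 5 kb the intervals between regions and beside zones overlap in both replicates, and most of these densities between regions and beside zones rest on fewer than 20 peaks. A stretch between regions has a region on both sides, and peaks of a zone are not independent, so no test was made.

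The peaks between regions came from a minority of zones. A peak of replicate 1 alone was present inside 20 of the 81 zones (24.7%, Wilson interval 16.6 to 35.1) and a peak of replicate 2 alone inside 29 (35.8%, 26.2 to 46.7). Both kinds were present in 12 zones and neither in 44. Of the 31 replicate 1 peaks whose middle lay in a zone, 21 had a replicate 2 peak within 1 kb, as did 33 of the 57 replicate 2 peaks with a replicate 1 peak. Elsewhere the shares were 18.7% and 17.0%, but a zone holds shared regions of both replicates by construction, so a near partner is more likely there.

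Outside their ends, zones were not separated from isolated regions by the test. Loci lie over 20 kb apart, so the 10 kb on either side of a zone or an isolated region hold no shared region and overlap no other flank. A peak of replicate 1 alone was present there for 26 of 81 zones (32.1%, Wilson interval 22.9 to 42.9) and for 93 of 314 isolated regions (29.6%, 24.8 to 34.9). For replicate 2 the counts were 34 of 81 zones (42.0%, 31.8 to 52.8) and 113 of 314 isolated regions (36.0%, 30.9 to 41.4). Neither difference passed Fisher's exact test (two-sided, p = 0.685 and 0.367, both 0.685 after Benjamini-Hochberg adjustment over the 2 replicates). The differences were 2.48 and 5.99 percentage points, and the intervals of the shares of zones and isolated regions overlap in both replicates. No interval of the differences was computed. A miss of the threshold does not show that zones and isolated regions are alike.

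The share of regions in zones ranged widely over the arms. On 2L, 56 of 112 regions were clustered (50%, Wilson interval 40.9 to 59.1), on 2R 50 of 105 (47.6%, 38.3 to 57.1), on X 45 of 101 (44.6%, 35.2 to 54.3) and on 3L 39 of 107 (36.4%, 27.9 to 45.9). On 3R the share was 26.5% (18.9 to 35.8), 27 of 102, in 10 zones, of which the zone of 8 regions alone held 8. On chromosome 4 it was 2 of 6. Neighbours in the order 2L, 2R, X and 3L have overlapping intervals, while that of 3R lies below those of 2L and 2R. The intervals here and for the parts of arms below take regions as independent, which regions of a zone are not. They may thus be too narrow. The rule chose the clustered regions by position, so no test was made of these shares. The density of regions was also lowest on 3R, 3.67 per Mb against 4.58 to 5.14 on the other large arms, and a sparser arm has fewer close neighbours. Its part in the low share was not tested.

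The peaks of 1 replicate alone did not share this order. On 3R, 45.9% of such replicate 1 peaks (interval 39.1 to 52.9) and 54.96% of such replicate 2 peaks (48.7 to 61.1) had another of the same kind within 20 kb. On 2L these shares were 41.3% (33.4 to 49.6) and 48.0% (40.8 to 55.3). The arm with the lowest share of clustered shared regions was thus not the lowest for either kind of unshared peak. The lists are of unlike density, as 3R held 102 shared regions but 196 and 242 unshared peaks of replicates 1 and 2. A denser list has more close neighbours, and the part of density in this contrast was not tested.

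**Figure D5:**
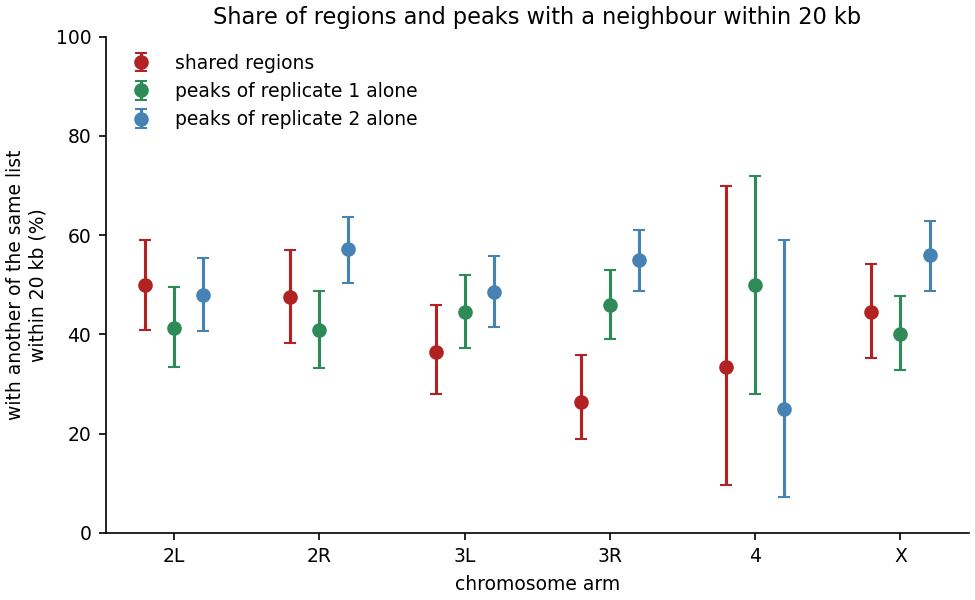
Share with another of the same list within 20 kb (vertical axis, %) by chromosome arm, for shared regions (red), peaks of replicate 1 alone (green) and peaks of replicate 2 alone (blue), with Wilson 95% intervals. Shared regions are lowest among the large arms on 3R, at 26.5%, where the unshared peaks stand at 45.9% and 54.96%. The lists differ in density, with 102 shared regions on 3R and 196 and 242 unshared peaks.

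Along the arms, the share was lowest at the end away from the centromere, although the intervals overlap. With each of the 5 large arms cut into 3 equal parts, 33.9% of 165 regions (interval 27.2 to 41.5) were clustered in the distal part, toward the telomere, 42.4% of 198 (35.7 to 49.4) in the middle part and 46.95% of 164 (39.5 to 54.6) in the proximal part. The low distal value rests on the arms of chromosome 3: over 2L, 2R and X alone it was 46.8% (37.8 to 56.1), and 44.9% and 51.7% in their middle and proximal parts. On 3R, 0 of 29 distal regions were clustered, which allows a share of up to 10.3% by a limit of 3 counts and 11.7% by the Wilson interval, and on 3L 4 of 25 were, whereas on 2L 24 of 45 were. Distal 3R was not empty of close peaks. Of the 69 replicate 1 peaks and 56 replicate 2 peaks found alone there, 42.03% and 41.1% had another of the same kind within 20 kb. These lists are denser there than the 29 shared regions, which alone gives more close neighbours, so the shares are not directly comparable. Distal 3R was picked out after its value was seen.

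Zones themselves seldom had another zone nearby. The median distance between neighbouring zones of an arm was 810 kb. In 8 cases it was within 100 kb, the closest on X, where 26.2 kb separated the pair ending at 10639598 from the zone of 3 starting at 10665818. Also on X, 26.8 kb separated a zone of 3 regions, from 3637862 to 3643097, from the high-scoring zone of 4 that starts at 3669945. On 3L, 38.1 kb lay between the pair from 11239371 to 11249536 and the pair from 11287609 to 11289237. Each of these pairs held 1 of the 10 regions highest on the mean of both replicates. In the first pair that region, at 11249401, scored 2.30 in replicate 1 and 6.82 in replicate 2. The longest stretch with a zone at both ends was 4.68 Mb on 3R, from 12760329 to 17441834, with 15 isolated regions in it. A longer part of 3R without a zone lay beyond its last zone, which ended at 17459661. The last region of that arm ended at 27620419.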

How the data were processed

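The files analysed were 3 peak lists, 1 for each ORC2 ChIP sample and 1 for the whole series. Coordinates are on FlyBase release 5.1, per the file headers, which also name PeakSeq on each line. Reads were 36 nt single-end, per the labels. The score was deposited by the authors with no unit. For the aligner and for the control and thresholds of PeakSeq, the sources used here give nothing. No read counts were analysed, so depth is unknown.

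Distances are the start of the next region minus the end of the previous one. Replicate peaks were matched by at least 1 shared base. The members, zones and comparisons were chosen with earlier results of these data known. Zones named are the 10 with the most regions (ties by covered bases) and the fullest on each arm; all regions of the 3 fullest are described, and the highest and widest of the others. Regions named elsewhere were chosen after their values were seen. Only the flanks were tested, by Fisher's exact test with loci as units. Densities at matched distances, parts of arms and values by zone were added after seeing the data. The alternatives tried are listed at the end. The work was done in SciPy 1.17.1, pandas 2.3.3 and NumPy 2.4.6 under Python 3.11.15, with figures in matplotlib 3.10.9, and was tested on simulated data. The gene table at hand describes Release 6, so no gene or sequence is given.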

Additional observations from a re-analysis of the deposited data

Results flagged for a closer look

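Outside the 6 arms, on unplaced and heterochromatic sequence that the zones leave out, 20 of 57 replicate 2 peaks had another peak of that list within 20 kb. They are given here because no comparison used that sequence. In replicate 1 it was 2 of 18, and 0 of 7 shared regions had such a neighbour. On the arms the share of peaks with such a neighbour was higher, 65.9% in replicate 2 and 59.2% in replicate 1.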

How the results depend on the processing

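The share of regions in zones, 41.1% at 20 kb, follows the joining distance: it was 27.0% at 5 kb, 33.8% at 10 kb and 58.2% at 50 kb, and 33.5% when regions within 1 kb were joined to 1 first. In the single replicate lists, which hold far more peaks, it was 59.2% and 65.9%, with 286 and 335 zones in place of 81. These shares follow from the number of peaks or the distance by construction. Requiring replicate peaks to share 50% of the shorter peak gave 40.7%. The difference in median width, 40.5 bp, was 21 bp at 50 kb and 24.5 bp with 1 median per zone, and 34.5 bp without the 3 fullest zones. The difference in replicate 2 score, 0.25, was 0.14 with 1 median per zone, and the cause was not tested. In replicate 1 the score difference ranged from 0.05 to 0.16 over all alternatives. No alternative turned a direction of these differences. For the flanks, p ranged from 0.0786 to 0.882 over the alternatives (Fisher's exact test). The 3 settings that leave out the fullest zones, leave out regions within 1 kb of another or take 1 median per zone were chosen after seeing the data. Widths and scores are given for each replicate alone, so no replicate was left out of them. With no depth in the files, a narrow peak cannot be weighed against a wide one.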
